A study of Mus musculus with 6 samples.

Results

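Chemokines are small secreted proteins that guide leukocytes along a gradient, each through a matching receptor on the cells it attracts. Cxcl1, Cxcl2, Cxcl3 and Cxcl5 act on CXCR2, the main chemokine receptor of neutrophils, and Ccl2 and Ccl7 act on CCR2 of inflammatory monocytes. Tumour cells can make them, typically after inflammatory cytokines activate the transcription factor NF-kB, and their short-lived mRNAs are marked for decay by AU-rich elements in the 3′ untranslated region (UTR). The 10 mouse genes described here are these 6 together with Ccl20, Cx3cl1, Cxcl10 and Cxcl12. Ccl20 attracts cells with CCR6, Cx3cl1 (fractalkine) is made as a membrane-bound adhesion ligand of CX3CR1, and Cxcl10 and Cxcl12 act on CXCR3 of lymphocytes and on CXCR4, so that not every gene of the group is a chemokine for neutrophils or monocytes.

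All 10 symbols were found among the 15973 protein-coding genes that the study compared, and 9 of the 10 passed the filter on low counts. The cells were the 4T1-T VM sub-clone, a single clone derived from the 4T1 mouse mammary carcinoma line that is proficient in vasculogenic mimicry, the formation of vessel-like channels by tumour cells. Every library came from cells grown in RPMI with serum, starved overnight in Opti-Mem with 0.3% BSA and given Alexa-488 labelled acetylated low-density lipoprotein (acLDL) at 10 ug/mL for 4 h. The uptake assay also had 1 h in complete medium afterwards, which the paper describes before imaging and does not repeat for the sorted cells. A cell sorter then took the brightest 25% as acLDL-high and the dimmest 25% as acLDL-low. The labels name no genetic change or drug in either population, and cells that had not been given acLDL were not analysed here. Each population has 3 libraries, labelled as replicates 1 to 3, and the experiment was done on 3 separate occasions. The labels do not say that a number marks an occasion, and each number was taken here as 1 culture divided by the sorter into a pair of libraries, since same-numbered libraries deviated together.

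The 6 libraries held 70263372 to 94216786 counts, and 3 counts corresponded to 0.0323 to 0.0429 CPM (counts scaled to a common library size), which limits detection by counting error alone. The markers of the labelled cell type were high, with a mean of 1112 CPM for Krt8, 1128 CPM for Krt18 and 174 CPM for Epcam. Of the leukocyte markers, Adgre1, Tyrobp and Ly6c2 of macrophages and monocytes and Ly6g, S100a9, Csf3r, Mpo, Camp and Retnlg of neutrophils had 0 counts in every library. Others were detected, with means of 10.7 CPM for Cd14, 8.17 CPM for Cd68 and 2.41 CPM for Mrc1 of macrophages and monocytes. Among the neutrophil markers, S100a8 and Cxcr2 had low means of 0.206 and 0.180 CPM. The genes were proposed with the acLDL-high against acLDL-low results of these data in view, so the values of that contrast are a description of them and carry no test.

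The chemokine genes lie in tight clusters on the mouse genome (GRCm38, GENCODE M21). Cxcl5 (chr5:90759360-90761624), Cxcl3 (chr5:90786103-90789600), Cxcl1 (chr5:90891241-90893115) and Cxcl2 (chr5:90903871-90905938) follow each other on the forward strand, and Cxcl10 (chr5:92346638-92348889) lies further along on the reverse strand. Ccl2 (chr11:82035571-82037453) and Ccl7 (chr11:82045712-82047525) are neighbours, and Ccl20, Cxcl12 and Cx3cl1 stand apart on chromosomes 1, 6 and 8.

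Promoter sequences, taken from RefSeq (GRCm38.p6), were at hand for 7 of the 10 genes, all but Cxcl5, Ccl2 and Ccl7. A string like the NF-kB site, GGNNTTTCC on either strand, occurred within the 250 bases before the start in 5 of these 7 genes and in 4.93% of 32851 mouse promoters. They are shown because Cxcl1, Cxcl2 and Cxcl3 carry the same 9 letters, GGAATTTCC, within 96 bases of the start. Cxcl10 carries these letters on its other strand, 158 to 150 bases before the start, where its own strand reads GGAAATTCC. Capitals mark the matches in the following stretches, each written 5′ to 3′ on the strand of its gene.
Cxcl1, chr5:90891131-90891208, forward strand: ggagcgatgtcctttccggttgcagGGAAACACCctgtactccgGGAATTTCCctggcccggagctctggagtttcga
Cxcl2, chr5:90903778-90903855, forward strand: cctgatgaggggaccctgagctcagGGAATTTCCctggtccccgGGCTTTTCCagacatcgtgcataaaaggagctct
Cxcl3, chr5:90786004-90786062, forward strand: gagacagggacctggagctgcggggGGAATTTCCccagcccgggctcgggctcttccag
Cxcl10, chr5:92349014-92349072, reverse strand: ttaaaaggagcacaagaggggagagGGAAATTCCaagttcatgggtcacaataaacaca
Ccl20, chr1:83116661-83116719, forward strand: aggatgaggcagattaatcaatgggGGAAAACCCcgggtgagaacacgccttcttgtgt

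Cxcl10, known for its response to interferon, was the 1 gene of the 7 with a string like the interferon-stimulated response element, GAAANNGAA on either strand, against 7.13% of all promoters. It was also the 1 gene with TGANTCA, a string like the AP-1 site, which 6.75% of all promoters hold. TATAAA on the gene's own strand occurred in Cxcl3 and Cx3cl1, 2 of 7, against 7.59% of all promoters. A match of letters is a description of the window and not a binding site.

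The 3′ UTRs differed in their content of the AU-rich pentamer ATTTA. Cxcl1 had 7 in 592 bases, or 11.8 per kb, a density above that of 99.4% of the 12500 tested genes with a 3′ UTR, whose median was 1.27 per kb. Ccl20 had 8.57 per kb, Cxcl3 7.75 and Cxcl2 7.36, and Ccl7, Cxcl5, Ccl2 and Cxcl10 ranged down to 3.01. Cx3cl1, with 1 pentamer in 1871 bases or 0.53 per kb, and Cxcl12, with 4 in 5188 bases or 0.77 per kb, lay below that median. The longer string TTATTTATT occurred in Cxcl1, Cxcl2, Cxcl3 and Cx3cl1, 4 of the 9 genes that passed the filter, and in 8.10% of the tested genes. For the 3 CXCR2 ligands with the longer string, the 30 bases with most pentamers follow in DNA letters, with pentamers in capitals. The stretches were picked by pentamers alone, and only that of Cxcl2 holds the longer string itself.
Cxcl1: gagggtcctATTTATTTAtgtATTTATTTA
Cxcl2: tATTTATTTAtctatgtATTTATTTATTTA
Cxcl3: caagatggcatcttATTTAatgtttATTTA

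Relative to exon length, Cxcl1 had the highest level, with a mean of 146 CPM per kb over the 6 libraries and a range of 63.8 to 237. Ccl2 followed with 39.0 CPM per kb, Cxcl5 with 32.0, Cx3cl1 with 24.6 and Ccl20 with 9.96. The remaining genes had means of 3.40 (Cxcl10), 1.91 (Cxcl2), 0.801 (Ccl7) and 0.149 CPM per kb (Cxcl3), and Cxcl12 was under the floor. In this order Cxcl1 stood above Ccl2, Ccl2 above Cxcl5, Cx3cl1 above Ccl20 and Cxcl2 above Ccl7 in 6 of 6 libraries. Cxcl5 exceeded Cx3cl1 in only 3 of 6, and Ccl20 exceeded Cxcl10, and Cxcl10 exceeded Cxcl2, in 4 of 6, so these neighbours have no fixed order. The lengths count every annotated exon, including transcripts that keep their introns. The exons of Cxcl1, Cxcl2, Cxcl3 and Cxcl10 merge into 1 block each, so their level per kb is a low estimate. Those of Cxcl5 and Ccl2 merge into 2 blocks and those of Ccl20 into 3. Kept introns were not looked for in the other genes, so their levels per kb may be low too and the order above is not certain.

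The first comparison asked how the chemokine mRNAs stood in cells that took up much acLDL against cells that took up little. All 9 genes that passed the filter were higher in acLDL-high than in acLDL-low cells in each of the 3 pairs, a pattern shown by 20.9% of the 12572 genes tested. The log2 fold changes ranged from 0.26 for Cx3cl1 to 1.72 for Ccl7, where the median of all tested genes was 0.0017. Since the genes were chosen on this contrast, nothing is read from these counts.

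Of the CXCR2 ligands, Cxcl1 had 236, 226 and 120 CPM in acLDL-low replicates 1, 2 and 3 and 443, 353 and 265 CPM in acLDL-high replicates 1, 2 and 3. It was the only one of the 10 genes whose groups did not overlap, as in 1.23% of tested genes that were likewise higher in acLDL-high, and its log2 fold change was 0.90 ± 0.07 (standard error, SE, of the edgeR fit over 3 pairs). Cxcl5, which in mice is made largely by epithelial cells, had 89.1, 17.1 and 7.46 CPM in acLDL-low and 191, 34.6 and 17.9 CPM in acLDL-high cells. The 2 groups overlapped because replicate 1 was far above the others in both, yet the differences within pairs were the closest of the CXCR2 ligands, at log2 1.10, 1.02 and 1.26, and the log2 fold change was 1.11 ± 0.05 (SE).

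Cxcl2, the second classical neutrophil attractant of the mouse, was much lower, with 3.63, 3.11 and 1.54 CPM in acLDL-low and 8.01, 4.06 and 3.34 CPM in acLDL-high cells. The pair of replicate 2 differed least, by log2 0.38, against 1.13 and 1.10 in the pairs of replicates 1 and 3, and the log2 fold change was 0.88 ± 0.15 (SE). Cxcl3 was close to the limit of detection, with 0.991, 0.223 and 0.0286 CPM in acLDL-low and 1.38, 0.389 and 0.108 CPM in acLDL-high cells. Its log2 fold change of 0.67 ± 0.31 (SE) rested in replicate 3 on 10 counts against 2, a ratio of 3.77 with an exact 95% counting interval of 0.803 to 35.4. That interval takes every count as a separate molecule, but low counts were mostly even in these libraries, and with both counts halved it was 0.422 to 178. Windows of 50 bases shared with Cxcl2 or other transcripts made up 4.29% of Cxcl3. Of the windows of Cxcl2, 5.84% were shared with Cxcl3, and reads from there could be assigned to either gene or left out of both. Cxcl2 had 108 (acLDL-low) and 310 counts (acLDL-high) in replicate 3, so this part, if counted, need not be small for Cxcl3. How much of the Cxcl3 counts such reads made up was not tested.

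**Figure D1:**
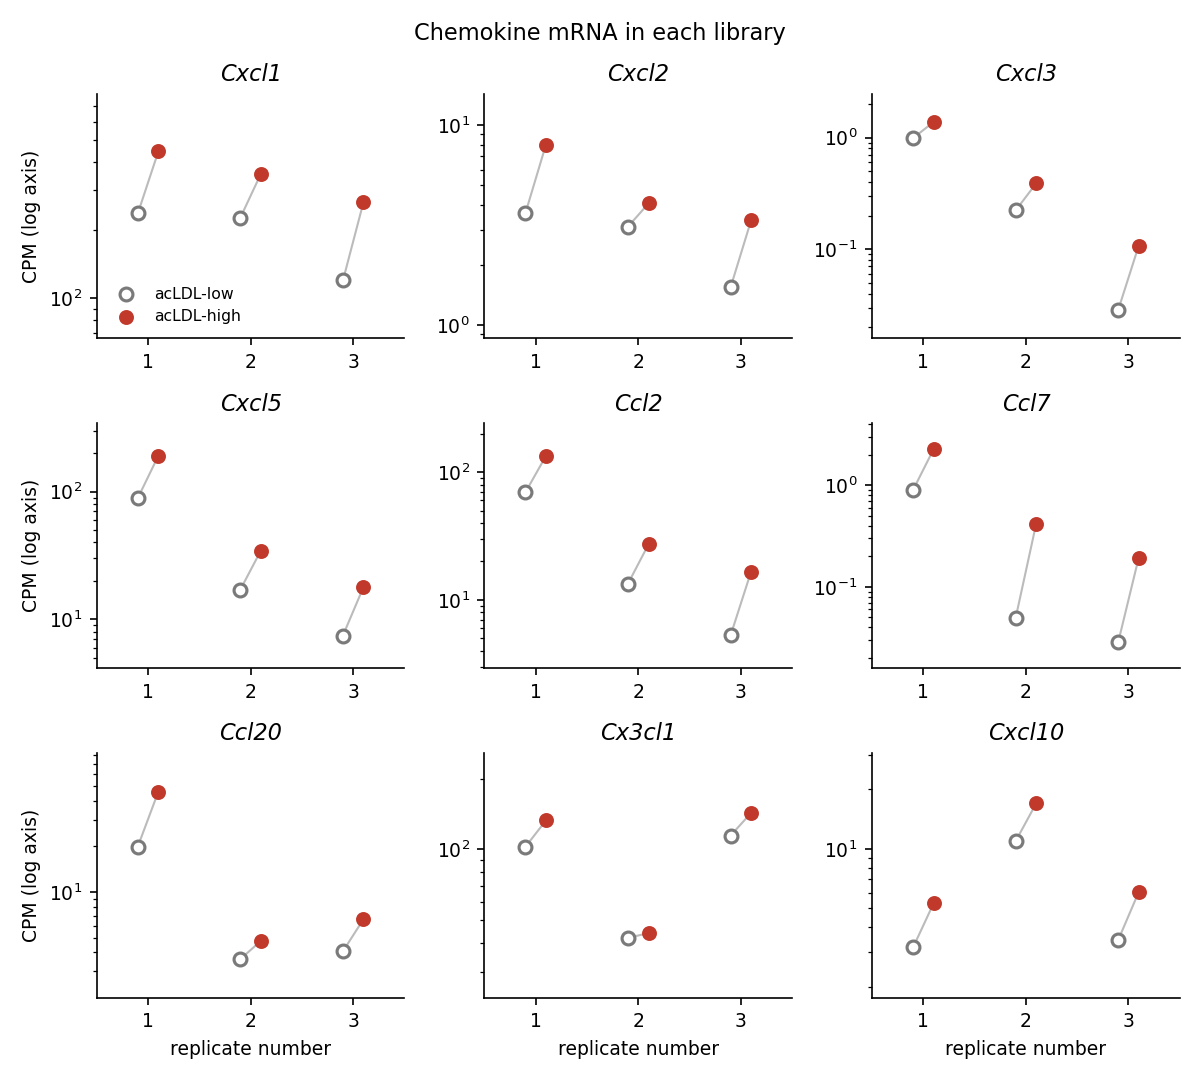
CPM on a log axis in each library for the 9 chemokine genes that passed the filter, with acLDL-low (open) and acLDL-high (filled) libraries of the same replicate number joined by a line. Every line goes up, and the distance between replicate numbers exceeds that within pairs for most genes; Cxcl1 is the gene whose filled points, 265 CPM and above, all lie above its open points.

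Ccl2, the main attractant of monocytes, had 69.6, 13.4 and 5.27 CPM in acLDL-low and 134, 27.2 and 16.7 CPM in acLDL-high cells. Its log2 fold change was 1.15 ± 0.10 (SE), with the pair of replicate 3 at log2 1.66 and the other 2 pairs at 0.95 and 1.02. Ccl7, its neighbour on chromosome 11 and also a CCR2 ligand, was far lower, with 0.899, 0.0495 and 0.0286 CPM in acLDL-low and 2.26, 0.417 and 0.194 CPM in acLDL-high cells.

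The log2 fold change of Ccl7, 1.72 ± 0.34 (SE), was the ninth highest of the 12572 tested genes, and it depended on replicate 1, without which it was 2.92. Most of its reads lay in that pair, with 68 counts in acLDL-low and 180 in acLDL-high. In replicate 2 the ratio of 30 counts to 4 was 8.43 with an exact 95% counting interval of 2.97 to 32.9, and in replicate 3 that of 18 to 2 was 6.78 with an interval of 1.62 to 60.3. The counts of Ccl7 were even in all 6 libraries, and with the counts halved the intervals were 1.96 to 75.9 in replicate 2 and 0.940 to 297 in replicate 3, the latter reaching below 1. Ccl11, Ccl12, Ccl8 and Ccl1, the next chemokine genes of the cluster, had 0 counts in all 6 libraries.

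Ccl20, which attracts dendritic cells and lymphocytes with CCR6, had 19.96, 3.61 and 4.07 CPM in acLDL-low and 45.9, 4.77 and 6.62 CPM in acLDL-high cells. The log2 fold change of 0.85 ± 0.12 (SE) was carried most by replicate 1, with a difference of log2 1.20 against 0.40 and 0.70, and it was 0.56 without that pair. Cx3cl1 had 103, 42.0 and 115 CPM in acLDL-low and 133, 44.1 and 143 CPM in acLDL-high cells. It differed least of the 9 genes, with a log2 fold change of 0.26 ± 0.05 (SE) and only 0.07 in the pair of replicate 2.

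Cxcl10 had 3.17, 10.9 and 3.46 CPM in acLDL-low and 5.30, 17.0 and 6.05 CPM in acLDL-high cells. The pairs lay close together, at log2 0.74, 0.63 and 0.80, with a log2 fold change of 0.72 ± 0.09 (SE). The exons of Cxcl10 overlap those of Art3 on the opposite strand over 133 bp, 5.91% of their length, and reads there could not be assigned without the strand. Cxcl12, a chemokine mainly of stromal cells, had 2 counts in acLDL-low replicate 2 and 0 in the other 5 libraries, under the floor of 3 counts in both populations, so no fold change is given. In a bulk population more cells that express a gene and more mRNA in each such cell cannot be told apart, which applies to every value here.

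**Figure D2:**
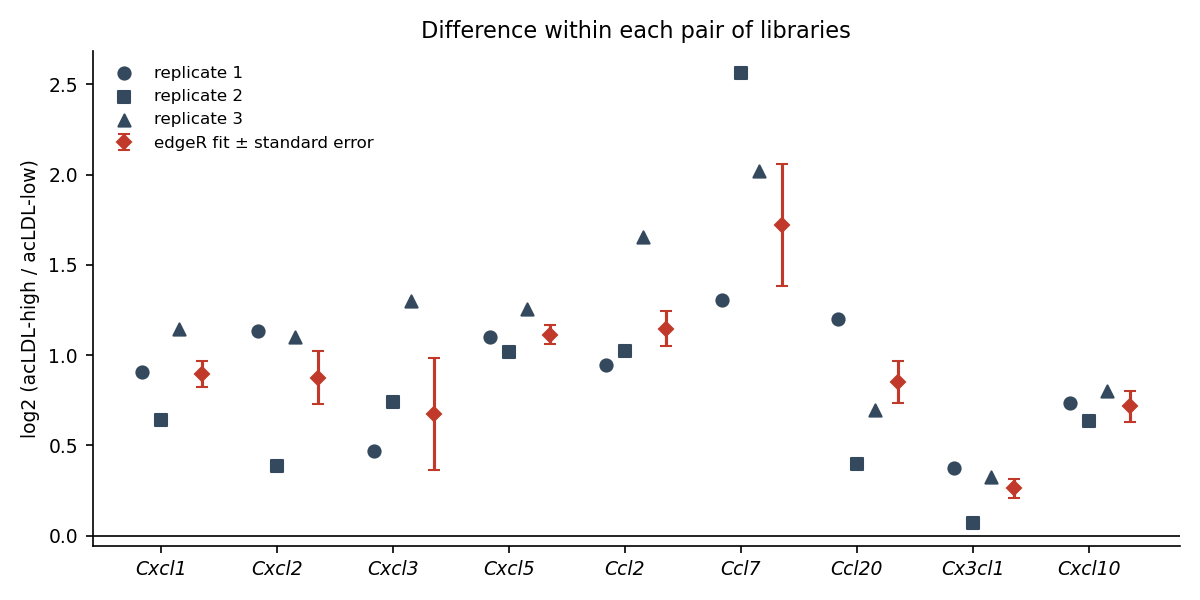
Difference in log2 CPM between the acLDL-high and acLDL-low library of each replicate number (dark symbols) for 9 chemokine genes, with the edgeR log2 fold change and its standard error (red diamonds). Every difference lies above 0, those of Cxcl5 and Cxcl10 are the closest together, and the pairs of Ccl7 run from 1.31 to 2.56.

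For orientation, 597 of the 12572 genes tested (4.75%) passed an adjusted p of 0.05 in edgeR's quasi-likelihood test within replicate blocks, 431 higher (3.43%) and 166 lower (1.32%) in acLDL-high cells, so that 72.2% of called genes were higher. With libraries scaled by their totals alone, 357 of 606 called genes, or 58.9%, were higher. Of the chemokine genes, 8 were among the 431, Cxcl3 was not called and 0 were lower. These 8 became 7 by DESeq2 with the block and 5 without replicate 3, where 126 genes were called in all. They became 0 in the fit without the replicate block, where no gene was called and 45 had an unadjusted p under 0.05. As the genes were chosen on this contrast, these calls give no test of them.

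The second comparison was between replicate numbers, which the choice of the genes did not use. Here 9802 of 12572 genes (78.0%) passed the edgeR quasi-likelihood F test at an adjusted p of 0.05, and so did 9 of the 9 chemokine genes, with adjusted p from 4.9e-12 for Cxcl5 to 1.2e-04 for Cxcl2. A count of 9 is little above that background. These p-values cover only the spread between libraries, since each number was taken as 1 culture.

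The size of the difference set the chemokine genes further apart than the count. Between the highest and the lowest replicate number the mean level differed 11.3-fold for Cxcl5, 10.3-fold for Ccl2, 13.4-fold for Ccl7, 14.1-fold for Cxcl3 and 7.25-fold for Ccl20, a wider range than that of 98.8% to 99.7% of tested genes. The folds of Cxcl3 and Ccl7 were computed with a prior count of 2 and rest on few counts in replicate 3. Cxcl10 (3.31-fold), Cx3cl1 (2.98-fold), Cxcl2 (2.36-fold) and Cxcl1 (1.82-fold) varied less, and Cxcl1 had a wider range than 78.5% of tested genes. The median tested gene had a log2 range of 0.45. In 8 of 9 genes, all but Cxcl1, the range between replicate numbers exceeded the difference between populations. The share of all tested genes with this pattern was not counted, so it is not read as particular to the chemokine genes. Of all tested genes 78.0% were called between replicate numbers and 4.75% between populations.

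The 9 genes fell into different patterns over the replicate numbers. Cxcl1, Cxcl2, Cxcl3, Cxcl5, Ccl2 and Ccl7 were highest in replicate 1 and lowest in replicate 3, an order shared by 9.70% of tested genes. Ccl20 was also highest in replicate 1, and lowest in replicate 2. Cxcl10 was highest in replicate 2 and Cx3cl1 lowest there. Over the 6 libraries, Cxcl5 and Ccl2, on different chromosomes, had a Pearson r of 0.996 in log2 CPM, Ccl2 and Ccl7 of 0.973 and Cxcl1 and Cxcl2 of 0.958, whereas Cxcl10 and Cx3cl1 had an r of -0.80. Same-numbered libraries were taken to share a culture, so that these values may describe little more than 3 cultures.

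**Figure D3:**
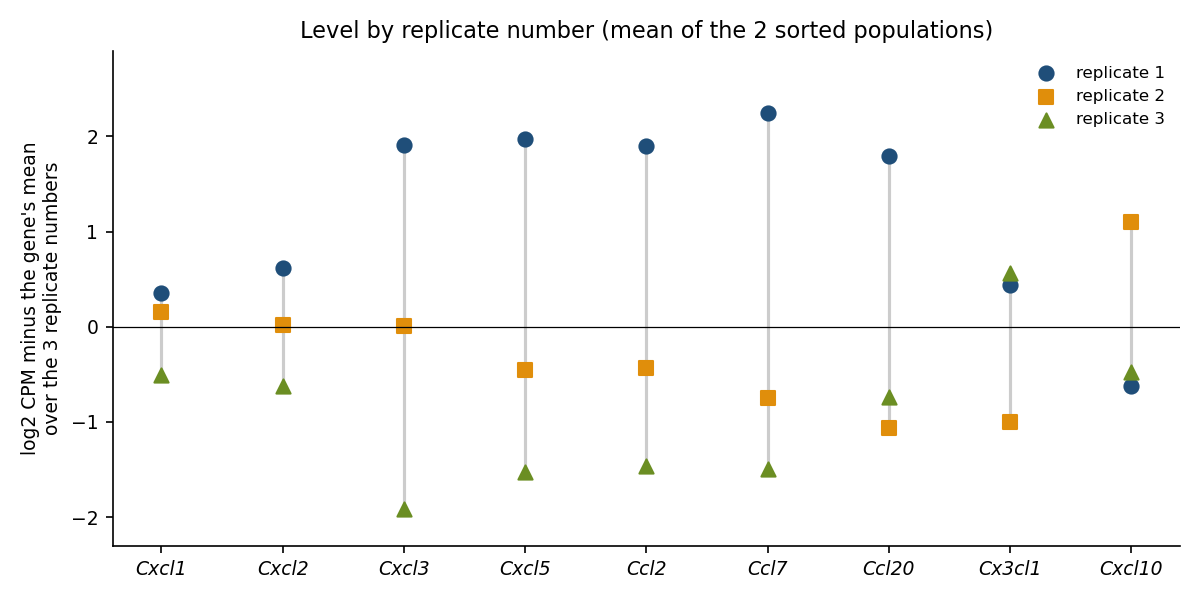
Mean log2 CPM of the acLDL-high and acLDL-low library of each replicate number, minus the gene's mean over the 3 numbers, for 9 chemokine genes. Replicate 1 is highest for 7 of them, with a log2 range from 0.86 for Cxcl1 to 3.82 for Cxcl3, and Cx3cl1 and Cxcl10 have replicate 2 at opposite ends.

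By correlation with the mean profile of Cxcl1, Cxcl2, Cxcl3 and Cxcl5 over the 6 libraries, the most similar of 10489 other genes were C1qtnf6 (r = 0.997), Lgals9 and Rab32 (both 0.990), Far1 and Pttg1 (both 0.989). For the mean profile of Ccl2 and Ccl7 they were Kif23 (r = 0.992), Syncrip (0.990), Npr1, Grhl1 and Lima1 (each 0.988). With 6 libraries such values were common, and 134 and 152 genes had an r over 0.9 with the CXCR2 and the CCR2 ligand profile. An r takes no account of size. The log2 range between replicate numbers ran from 0.11 for Syncrip to 1.49 for Rab32 among the similar genes named. Among the ligands of the 2 profiles it ran from 0.86 for Cxcl1 to 3.82 for Cxcl3.

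The other chemokine genes were mostly silent or near the floor. Beside the counts of each list below stands the share of all 12572 tested genes, 3.43% called higher and 1.32% lower in acLDL-high cells. Of 9 other CXC chemokines 3 could be tested and 1 rose, Cxcl16, a membrane-bound ligand and scavenger of oxidised lipoprotein, with a log2 fold change of 0.41 ± 0.04 (SE, edgeR adjusted p = 2.0e-04). It had 68.6, 81.1 and 59.8 CPM in acLDL-low and 94.4, 106 and 77.7 CPM in acLDL-high cells, though 18.3% of its exon length overlaps Zmynd15 on the opposite strand. Within the Cxcl cluster Ppbp had 2 to 37 counts per library and a log2 fold change of 0.39 ± 0.43 (SE), Pf4 had at most 2 counts and Cxcl15 had 0. Beside Cxcl10, Cxcl9 had 0 to 18 counts, with a log2 fold change of 0.29 ± 0.66 (SE), and Cxcl11, which was not among the 15973 genes compared, had 6 to 24.

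Of 19 other CC and C chemokines 5 could be tested and 1 rose, Ccl5, an attractant of T cells and monocytes, with a log2 fold change of 0.52 ± 0.11 (SE, edgeR adjusted p = 0.0161). Its CPM was 2.22, 6.36 and 7.96 in acLDL-low and 3.77, 9.97 and 9.36 in acLDL-high cells, with replicate 1 the lowest in both. Ccl25 had the highest CPM of the list, a mean of 9.80, with a log2 fold change of -0.07 ± 0.08 (SE). Beside Cx3cl1, Ccl17 had 1 to 19 counts, with a log2 fold change of -0.16 ± 0.71 (SE), and Ccl22 had at most 2. The median log2 fold change was 0.39 over the 3 tested CXC genes and 0.02 over the 5 tested CC and C genes, against 0.0017 over all tested genes.

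Of the receptors of these ligands, CXCR2, CCR2, CCR6, CX3CR1 and CXCR4 had mRNAs near the floor in the sorted cells, whereas the receptor genes Cxcr3 and Ackr3 did not. Of 23 chemokine receptor genes 6 could be tested and 9 had 0 counts in every library, Cxcr1 among them. Cxcr2 had a mean of 0.180 CPM, and Ccr2, Ccr6, Cx3cr1 and Cxcr4 had at most 8 counts in any library. Ackr3, a scavenging receptor of Cxcl12, was the highest of the list, with 59.0, 124 and 70.7 CPM in acLDL-low and 86.1, 134 and 83.4 CPM in acLDL-high cells. It was the 1 receptor gene that rose (log2 fold change 0.30 ± 0.06, SE, edgeR adjusted p = 0.0219), and it was no longer called without replicate 1 (adjusted p = 0.0541) or without replicate 3 (0.137). Cxcr3, the receptor of Cxcl10, had 3.42, 2.03 and 17.6 CPM in acLDL-low and 4.15, 1.84 and 19.7 CPM in acLDL-high cells, highest in replicate 3, with a log2 fold change of 0.13 ± 0.10 (SE).

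Genes known as NF-kB targets, other than chemokines, were all measurable, and 11 of 22 rose and 0 fell, with a median log2 fold change of 0.33. Of all tested genes 3.43% rose and 1.32% fell. As the list was written with earlier results of these data known, its count is not independent evidence. The 3 largest increases among the called genes were those of Lcn2, an iron-binding protein of inflamed epithelium (0.88 ± 0.07, SE), Csf2, which encodes GM-CSF (0.70 ± 0.08), and Tnfaip3, which encodes the feedback inhibitor A20 (0.59 ± 0.08). The 3 smallest were those of Vcam1 (0.39), Rel (0.28) and Nfkbie (0.23). Ptgs2, the inducible cyclooxygenase, had the highest CPM of the list, with 878, 2378 and 960 in acLDL-low and 1332, 3001 and 1426 in acLDL-high cells, and a log2 fold change of 0.50 ± 0.06 (SE).

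Without replicate 3 this count was 6 of 22, and of the genes named, Rel (edgeR adjusted p = 0.0830) and Nfkbie (0.104) were no longer called. That fit called 126 of 12421 tested genes in all, against 597 of 12572 in the main fit, so such losses were not particular to these genes. Nfkbie was also lost without replicate 1 (0.178). The pattern over replicate numbers was not that of the CXCR2 ligands in every target, since Lcn2 had 101, 6.42 and 99.1 CPM in acLDL-low cells, lowest in replicate 2, and Ptgs2 was highest there. The exons of Csf2 overlap an antisense gene over 12.0% of their length.

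Of 17 cytokine and receptor genes that can induce chemokines, 16 could be tested, 5 rose and 0 fell, where 3.43% of all tested genes rose. Il1a, the alarmin interleukin 1 alpha, had 25.6, 12.9 and 23.9 CPM in acLDL-low and 45.5, 25.8 and 56.1 CPM in acLDL-high cells. Its log2 fold change was 1.02 ± 0.07 (SE, edgeR adjusted p = 6.5e-06), with 11.2% of its exon length overlapping a transcript of the opposite strand. Tnf, at 0.912 to 4.29 CPM, had a log2 fold change of 0.93 ± 0.18 (SE), and the receptors Tlr2 (0.42), Il1r1 (0.30) and Tlr3 (0.23) rose less. Without replicate 3, where 126 of 12421 tested genes were called, Tnf (edgeR adjusted p = 0.234), Il1r1 (0.0749) and Tlr3 (0.185) were no longer called. Tlr3 was also lost without replicate 2 (0.0728). Irak1, the gene of the list with the highest CPM, had a log2 fold change of -0.02 ± 0.05 (SE).

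**Figure D4:**
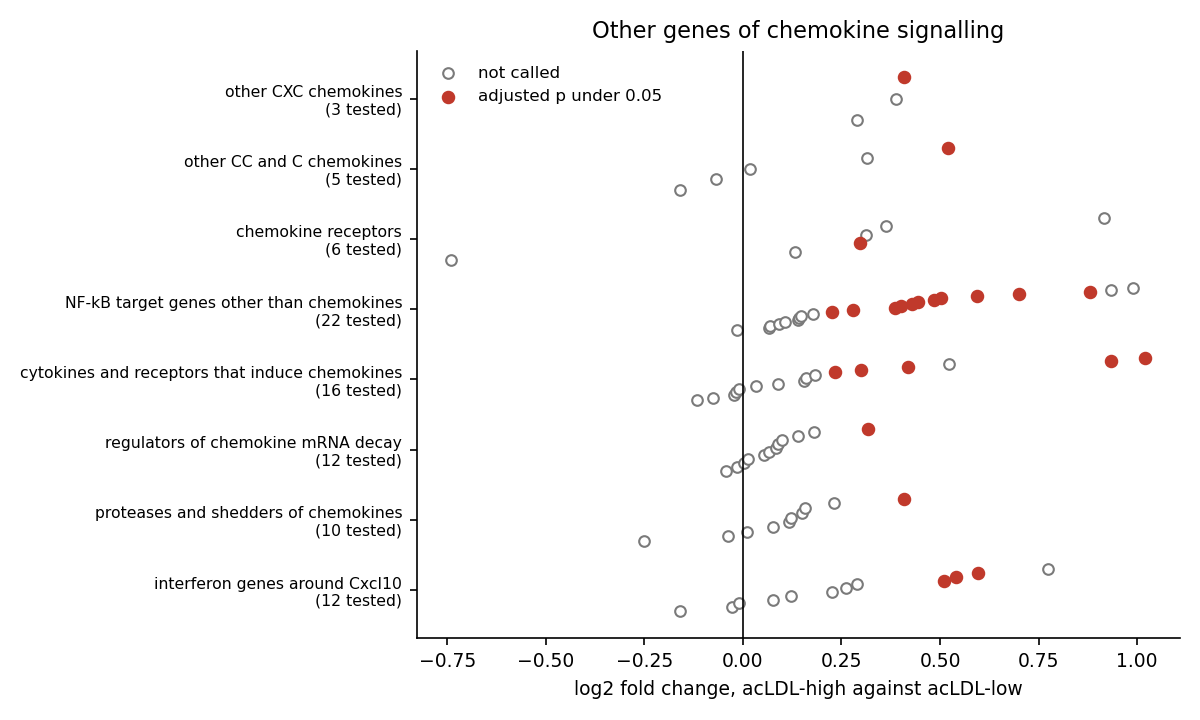
Log2 fold change between acLDL-high and acLDL-low cells for every tested gene of 8 lists around chemokine signalling, filled where the edgeR adjusted p was under 0.05. All 24 filled points lie above 0, and 11 of them belong to the NF-kB targets. Of all tested genes 3.43% were called higher and 1.32% lower.

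Regulators of chemokine mRNA decay changed little between acLDL-high and acLDL-low cells, while 11 of the 12 differed between replicate numbers, against 78.0% of all tested genes. Of 12 tested, 1 rose, where 3.43% of all tested genes did. This was Zc3h12a, which encodes the endonuclease Regnase-1 (log2 fold change 0.32 ± 0.06, SE), and it was not called without replicate 3 (edgeR adjusted p = 0.0584). Zfp36l2, the gene of this list with the highest CPM, had a log2 fold change of 0.07 ± 0.05 (SE). Among proteases that cut or shed chemokines 1 of 10 tested rose, against the same 3.43%. This was Mmp9, with 43.4, 50.3 and 187 CPM in acLDL-low and 59.3, 69.7 and 232 CPM in acLDL-high cells and a log2 fold change of 0.41 ± 0.05 (SE). Ctsb, with the highest CPM there, had 0.01 ± 0.04 (SE).

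Against 3.43% of all tested genes, 3 of the 12 tested interferon genes listed beside Cxcl10 rose, and 0 fell. They were Rsad2 (log2 fold change 0.60 ± 0.15, SE), Ifit1 (0.54 ± 0.14) and Gbp2 (0.51 ± 0.07), which encode an antiviral radical enzyme, a binder of viral RNA and a guanylate-binding protein. Gbp2 was called in every alternative that kept the block. Ifit1 and Rsad2 were not called without replicate 1 (adjusted p = 0.0686 and 0.0726) or without replicate 3 (0.0960 and 0.235), and Ifit1 was not called with library totals (0.0520) or halved counts (0.0758), nor Rsad2 by DESeq2 (0.0694). Irf1, with the highest CPM of the list, had a log2 fold change of 0.23 ± 0.10 (SE) and was not called.

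Markers of other cell types were compared because macrophages also take up acLDL and make several of these chemokines. The 12 macrophage and monocyte markers summed to 19.3 to 21.8 CPM in acLDL-low and 20.1 to 24.5 CPM in acLDL-high libraries, most of it from Cd14 and Cd68. Cd14, a lipopolysaccharide co-receptor, was the 1 marker of 5 tested that rose (log2 fold change 0.32 ± 0.07, SE, edgeR adjusted p = 0.0246). Cd68, a lysosomal protein abundant in macrophages, went the other way, with 10.7, 8.31 and 7.90 CPM in acLDL-low and 6.75, 7.19 and 8.16 CPM in acLDL-high cells and a log2 fold change of -0.28 ± 0.11 (SE, edgeR adjusted p = 0.201). The other 3 tested, Fcer1g (-0.34 ± 0.54, SE), Mrc1 (0.30 ± 0.17) and Ptprc (0.83 ± 0.69), were not called either. Adgre1, Tyrobp and Ly6c2 had 0 counts throughout and Csf1r had at most 4. The 11 neutrophil markers summed to at most 0.635 CPM, with 6 at 0 and 0 called, and the endothelial markers to 1.51 to 2.64 CPM, with Flt4, Emcn and Erg at 0 and 0 of 3 tested called. The fibroblast markers summed to 29.2 to 41.4 CPM in acLDL-low and 29.9 to 43.6 CPM in acLDL-high libraries, with 0 of 3 called. Most of this came from Pdgfra, at 28.1 to 42.8 CPM per library, while Lum and Thy1 had 0 counts throughout. Of 8 epithelial markers, Cldn4 and Cldn7 rose, by log2 0.53 and 0.30, and the sum of the list was higher in each acLDL-high library than in its partner. It was 3724 CPM in acLDL-high against 3300 CPM in acLDL-low in replicate 1, and 5905 against 5545 CPM in replicate 2. The part of these markers in the chemokine values was not tested.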

How the data were processed

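RNA of 3 acLDL-low and 3 acLDL-high populations was sequenced from stranded polyA libraries (8 PCR cycles). The authors aligned reads to mm10 and deposited raw counts per gene, whole numbers without normalization. The submitters' processing notes name STAR 2.5.2a, featureCounts 1.4.3-p1 and DESeq2 1.20.0. The strand setting and annotation release are not given in the sources used here. A table of the authors' own comparison (fold changes, p-values) served only for its gene list.

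Fold changes were computed from the deposited counts with edgeR 4.0.16 (R 4.3.3) over 15973 protein-coding genes, with filterByExpr, TMM, the replicate number as a block, the quasi-likelihood test and Benjamini-Hochberg adjustment over 12572 genes. The code was tested on simulated data. SE is the fold change divided by the root of F. CPM was computed on effective (TMM) library sizes, and log2 CPM for pairs and correlations had a prior count of 2. A gene was called at an adjusted p under 0.05.

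Same-numbered libraries deviated from their group means together (r = 0.795, 0.846 and 0.799, against -0.557 to -0.0882 for other pairings), and no libraries were duplicates. Of 53379 gene IDs 53274 were found in GENCODE M21, used for positions, exon lengths and 3′ UTRs (longest coding transcript). Other genes named are, per list, all called genes if 6 or fewer, otherwise the 3 largest and 3 smallest changes, plus the gene with the highest CPM, chemokine genes within 500 kb, the 5 genes most like each ligand group, and markers. Cxcr1, Cxcr2, Cxcr3, Cxcr4, Ccr2, Ccr6 and Cx3cr1 were named outside this rule as the ligands' receptors. The chemokine genes and lists were chosen with earlier results of these data known. Alternatives were other scaling (DESeq2 size factors, library totals), filters, gene sets, DESeq2 1.42.0, leaving out each pair, no block, a threshold of 0.01 and, chosen after seeing the data, counts divided by 2 and rounded up. The labels do not state which occasion a replicate number stands for.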

Additional observations from a re-analysis of the deposited data

How the results depend on the processing

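All 9 chemokine genes kept a positive fold change under each alternative that tested them (7 tested with at least 10 counts in every library), and Ccl7 alone moved by more than its spread, to log2 2.92 without replicate 1. The range of the others was widest for Ccl20, from 0.56 without replicate 1 to 1.05 without the block. The 597 called genes became 932 without a filter on low counts, 199 at an adjusted p under 0.01 and 126 to 869 when a pair was left out, 126 being without replicate 3. The 24 called list genes became 12 to 31 when a pair was left out, and the 9802 genes that differed between replicate numbers became 6034 to 8213. Without the replicate block, 0 genes and 0 list genes were called by edgeR, with 45 genes at an unadjusted p under 0.05, while DESeq2 with the block called 514 and edgeR with the block 597. No chemokine gene and no called list gene changed sign. Of the list genes, 18 that were called in neither fit changed sign in at least 1 alternative. With library totals Ctsb turned to -0.0091, Rc3h2 to -0.016 and Zc3h12c to -0.0051, and without the replicate block Ccl9 turned to -0.015 and Tnfaip2 to 0.0063. Leaving out a pair gave the log2 ranges Ccl9 -0.33 to 0.069, Tnfrsf1a -0.042 to 0.10, Traf6 -0.074 to 0.032, Zfp36l2 -0.016 to 0.11, Rc3h2 -0.011 to 0.026, Stat2 -0.14 to 0.039, Tnfaip2 -0.084 to 0.069, Il17ra -0.15 to 0.0040, Irak1 -0.069 to 0.016, Hnrnpd -0.035 to 0.020, Mmp12 -0.014 to 0.74, Irf3 -0.050 to 0.027, Irf7 -0.056 to 0.20, Ccl25 -0.16 to 0.0048, Ccr7 -0.075 to 0.31, Irak4 -0.054 to 0.028 and Zc3h12c -0.022 to 0.043. The other alternatives (scaling, all genes of the table, halved counts) called 584 to 666 genes, the lower end with at least 10 counts in every library. The causes were not tested. Depth limits Cxcl3, Ccl7 and Cxcl12, and the 3 pairs limit the precision of the rest.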

Other observations

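Low counts were mostly even. Of the counts from 1 to 20 in each library, between 70.9% and 72.3% were even numbers, in acLDL-low and acLDL-high libraries alike. The counts of Ccl7, for example, were even in all 6 libraries, and those of Cxcl3 in all but acLDL-low replicate 1, with 75. With all counts divided by 2 and rounded up, a step chosen after seeing the data, 596 genes were called against 597. The chemokine genes called were 8 of 9 in both fits, which is a description only, since they were chosen on this contrast.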
